A study of Mus musculus with 12 samples.

Results

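The genotype difference in interferon-stimulated tumor cells was examined: *Mbnl* double knockout (DKO) against non-targeting control (NTC) cells, both treated with IFNγ, over all genes that reached 1 TPM in 3 or more of the 12 libraries. This rule kept 11663 of the 23022 listed genes. The comparison is between 6 libraries, 3 of each genotype, and the spread was estimated over all 12. All cells were B16-F10, a mouse melanoma line, carrying Cas9 and grown from a single sorted Cas9-positive cell. DKO cells had received paired guides against *Mbnl1* and *Mbnl2*, and NTC cells a non-targeting pair, which the sample labels call a no template control. Both are polyclonal pools of cells that carry guides. Only the DKO guides have target genes, and a DKO library can hold edited and unedited alleles. IFNγ was given for a day as the recombinant mouse protein. The other 6 libraries are the same genotypes left unstimulated. Nothing in the labels says whether the replicates came from separate cultures, so p-values measure the spread between these libraries, which may be technical.

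MBNL proteins are RNA-binding proteins that bind YGCY-type motifs, regulate alternative splicing and alternative polyadenylation, and place and stabilize some mRNAs. IFNγ binds a receptor made of IFNGR1 and IFNGR2, JAK1 and JAK2 pass the signal on, and GAS elements in promoters answer by switching on IRF1 and a broad set of genes. Among these are the genes of MHC class I antigen presentation: the immunoproteasome cuts peptides, TAP carries them into the endoplasmic reticulum, and a complex with tapasin loads them onto a class I heavy chain paired with β2-microglobulin. Melanoma cells of this line also make melanin, under control of the transcription factor MITF.

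Values are TPM as deposited, a transcript share of each library, already corrected for gene length, and they keep no read depth. Every value was, within 0.02 of a step, a whole multiple of a step proper to its library, which gave a factor of 0.922 to 0.957 for NTC and 0.879 to 0.904 for DKO libraries. Before this factor the listed genes summed to between 912468 and 917564 TPM in every library. Differences below are DKO minus NTC on the log2(TPM + 1) scale, which understates the change of genes near 1 TPM, and an adjusted p-value under 0.05 in limma is called passing. GC content moved with the comparison. The 2313 tested genes of lowest GC content had a median difference of −0.13 with IFNγ and those of highest GC content 0.14, against −0.02 and 0.02 without IFNγ. Treated DKO replicate 2 and treated NTC replicates 2 and 3 had the steepest trends with GC content, 0.16, −0.16 and −0.18 per 10 percentage points. The part of GC content in each result was not tested beyond the refit that took out each library's trend on GC content and length. Cells of other types left little signal. Of 23 immune cell markers, 13 were at 0 in all 12 libraries, and the list summed to 5.32 to 6.96 TPM with IFNγ in NTC and 8.21 to 11.1 TPM in DKO cells. Of 16 fibroblast and endothelial markers, 9 were at 0 in all 12 libraries, and the list summed to 5.76 to 7.45 TPM with IFNγ in NTC and 9.13 to 10.4 TPM in DKO cells. The part of such cells in the results was not tested. The melanin and melanosome genes summed to between 17005.6 and 24244.5 TPM in the treated libraries.

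With IFNγ, 5053 of 11663 tested genes differed between DKO and NTC cells (43.3% of those tested), 2271 higher (19.5%) and 2782 lower (23.9%) in DKO. Most differences were small: the median size among passing genes was 0.33, and 1063 of them exceeded 0.5 in either direction. Beyond 1, there were 71 higher and 72 lower genes. In bulk RNA, fewer cells expressing a gene and less RNA per cell cannot be told apart. The 3 DKO libraries did not overlap the 3 NTC libraries for 49.9% of all tested genes. The split by direction depended on the scale. With each library brought to the same total, 3278 genes were higher and 1746 lower, and the median over all genes moved by 0.08 to 0.07. Counts given below for single lists at the same total carry this shift of all genes. At median-ratio scaling, the counts were 2398 and 2563.

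**Figure D1:**
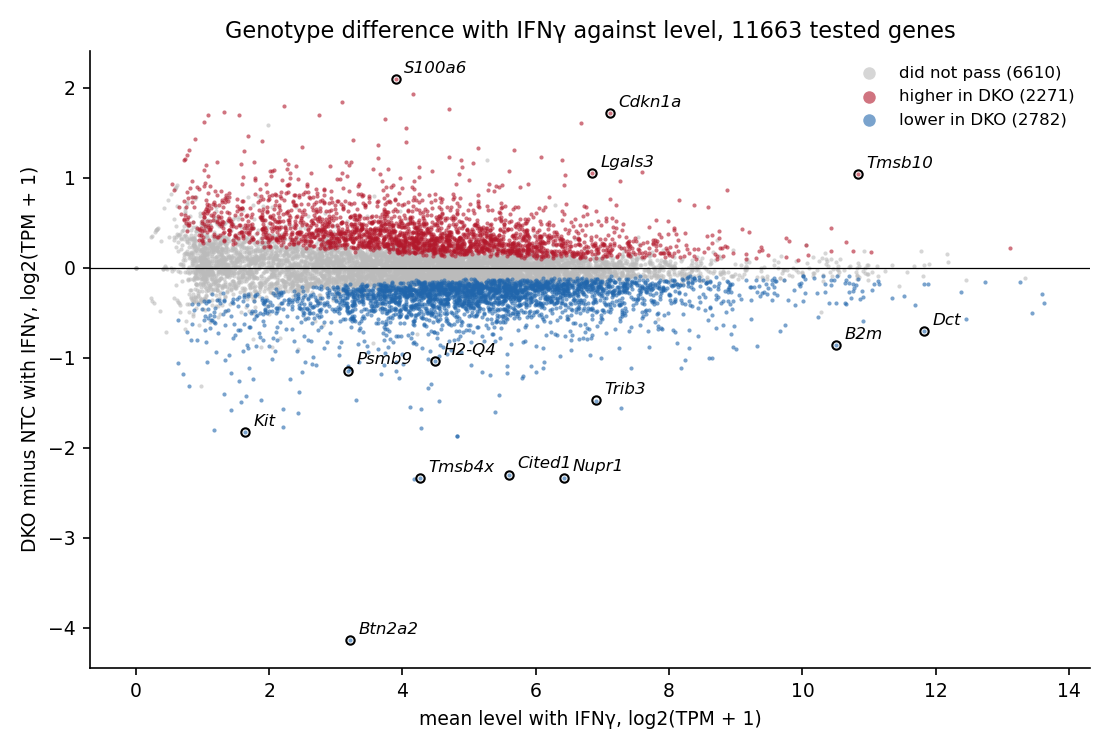
Difference between DKO and NTC cells with IFNγ on the log2(TPM + 1) scale (vertical axis) against the mean level over the 6 treated libraries (horizontal axis), 1 point per tested gene. Red and blue points passed the test; *S100a6* (2.10) is the highest and *Btn2a2* (−4.13) the lowest of the circled genes.

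The targeted genes were still transcribed in DKO cells. *Mbnl1* (chr3:60472830-60629750, GRCm38) stood at 60.5, 63.9 and 63.3 TPM in NTC cells against 44.9, 42.7 and 47.5 TPM in DKO cells, so no libraries overlapped, and the difference was −0.47 (SE 0.0489, adjusted p = 8.12e-06). For *Mbnl2* (chr14:120275669-120431697) the values were 107, 104 and 107 TPM in NTC cells against 88.9, 83.9 and 98.04 TPM in DKO cells, with a difference of −0.23 (SE 0.0527, adjusted p = 0.00308). TPM count edited transcripts as well, so RNA levels do not measure how many alleles were cut. *Mbnl3*, the third family member and no target of the guides, measured 5.59, 5.87 and 6.03 TPM in NTC cells against 7.56, 7.42 and 6.91 TPM in DKO cells. Its difference was 0.28 (SE 0.105, adjusted p = 0.0454), and it passed in only 3 of the 12 fits on 11 libraries, with adjusted p-values between 0.0172 and 0.118.

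MHC class I genes were lower in stimulated DKO cells. Of 14 genes on the list of heavy chains and *B2m*, 8 were tested, 7 were lower and 0 higher, and the median difference was −0.48 against −0.01 over all tested genes. *B2m* encodes β2-microglobulin, the invariant light chain that every class I heavy chain needs at the cell surface. It lies at chr2:122147686-122153083 and measured 1794, 1924 and 1877 TPM in NTC cells against 1057, 933 and 1097 TPM in DKO cells. The 2 genotypes did not overlap, the NTC mean was 1.81 times the DKO mean, and the difference was −0.86 (SE 0.0580, adjusted p = 1.93e-07). *H2-K1* and *H2-D1* are the classical heavy chains of this strain. *H2-K1* stood at 140.1, 131 and 121 TPM in NTC cells against 75.6, 80.5 and 70.8 TPM in DKO cells, a difference of −0.78 (SE 0.0627, adjusted p = 8.79e-07). *H2-D1* stood at 266, 272 and 258 TPM in NTC cells against 175, 179 and 171 TPM in DKO cells, a difference of −0.60 (SE 0.0370, adjusted p = 9.08e-08).

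The nonclassical heavy chains followed with a wide range. *H2-Q4* measured 29.4, 28.4 and 29.7 TPM in NTC cells against 13.8, 13.7 and 13.8 TPM in DKO cells, a difference of −1.03 (adjusted p = 1.21e-06) and the lowest of the list. *H2-T22* and *H2-T23* differed by −0.27 (adjusted p = 0.00903) and −0.26 (adjusted p = 0.0478), and *H2-T23* passed in 2 of the 12 fits without 1 library. *H2-Q6*, near 1 TPM, differed by −0.36 (adjusted p = 0.0179) and *H2-Q7* by −0.16 (adjusted p = 0.251), the only tested member of the list that did not pass. Heavy chain genes are near-identical copies, so reads may have been split between them, and values of single heavy chains are uncertain for that reason. With each library at the same total, 5 of the 8 passed, all lower. Without IFNγ, 4 were lower and 0 higher, with a median of −0.18. *B2m* lies on the part of chromosome 2 described further on, and without it 6 of 7 were lower, with a median of −0.36.

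The promoter of *B2m* is shown beside those of *Oas1a*, which was lower in DKO, and *Irf1*, which was higher, because all 3 hold letters that interferon-activated factors are known to read. The runs are the 250 bases up to the start of each gene in RefSeq, build GRCm38.p6, 5′ to 3′ on the gene's strand. Capitals mark every match to either of 2 sets of letters, each searched on both strands. One is a core of the interferon-stimulated response element, GAAA, any 2 bases and GAAA again, and the other is TTCNNNGAA, the core of a GAS element. The coordinates are chr2:122147437-122147686 (plus strand), chr5:120907526-120907775 (minus strand) and chr11:53769764-53770013 (plus strand).
*B2m*: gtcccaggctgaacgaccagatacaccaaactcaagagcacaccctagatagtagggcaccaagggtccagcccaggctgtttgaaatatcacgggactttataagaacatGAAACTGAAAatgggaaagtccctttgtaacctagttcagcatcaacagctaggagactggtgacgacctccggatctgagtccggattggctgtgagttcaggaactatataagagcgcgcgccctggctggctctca
*Oas1a*: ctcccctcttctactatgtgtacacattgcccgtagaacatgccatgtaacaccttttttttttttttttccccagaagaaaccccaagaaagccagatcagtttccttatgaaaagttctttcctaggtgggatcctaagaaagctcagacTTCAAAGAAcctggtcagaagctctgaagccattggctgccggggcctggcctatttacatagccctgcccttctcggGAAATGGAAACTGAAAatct
*Irf1*: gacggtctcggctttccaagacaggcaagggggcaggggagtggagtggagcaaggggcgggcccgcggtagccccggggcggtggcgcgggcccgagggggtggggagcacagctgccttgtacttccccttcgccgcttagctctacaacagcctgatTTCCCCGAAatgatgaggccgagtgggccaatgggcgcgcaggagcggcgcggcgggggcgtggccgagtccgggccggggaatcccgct

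*B2m* held the paired GAAA letters 139 bases before the gene start, and *Irf1* held TTCNNNGAA 90 bases before it. *Oas1a* held both, with 2 overlapping copies of the paired GAAA letters and TTCNNNGAA 98 bases before the start. Over 32851 promoters of 300 bases, from 250 before to 50 after the start, the paired GAAA letters occurred in 3.44% and TTCNNNGAA in 8.30%. Counted by gene, over 27025 genes, the shares were 3.99% and 9.55%. Of the 107 tested genes on the 9 interferon lists, 88 had a promoter in the RefSeq table. The paired GAAA letters occurred in 7 of the 21 lower genes with a promoter, 5 of the 12 higher genes and 16 of the 55 that did not pass. TTCNNNGAA occurred in 5, 3 and 15 of them. A match of letters is a description and no evidence of binding.

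Part of the immunoproteasome was lower. Of 5 tested genes, 3 were lower and 0 higher, with a median of −0.26, and without IFNγ 2 were higher and 0 lower. *Psmb9*, a catalytic subunit that replaces the constitutive β1 subunit after IFNγ, stood at 12.5, 12.1 and 9.83 TPM in NTC cells against 5.34, 4.56 and 4.04 TPM in DKO cells, a difference of −1.14 (SE 0.111, adjusted p = 4.33e-06). It overlaps *Tap1* on the opposite strand, and unstranded reads of the 2 genes cannot be told apart there. The same holds for other named genes that overlap a neighbor on the opposite strand, among them *Ddit3*, *Ccnd1*, *Stat3*, *Stat5a*, *Stat6*, *Erap1*, *Irf3* and *Tgfb3*. *Psmb8*, another catalytic subunit, was near 1 TPM, with 1.36, 1.37 and 1.15 TPM in NTC cells against 0.488, 0.589 and 0.9749 TPM in DKO cells, and differed by −0.45 (adjusted p = 0.0162); it passed in 10 of the 12 fits without 1 library. *Psme2*, a subunit of the PA28 activator, was lower by less, −0.26 (adjusted p = 0.00433). *Psme1*, its partner, differed by −0.12 (adjusted p = 0.0591), and *Psmb10*, the third catalytic subunit, measured 59.99, 57.5 and 61.5 TPM in NTC cells against 63.5, 57.8 and 56.7 TPM in DKO cells and differed by −0.01 (adjusted p = 0.926). Of 31 constitutive proteasome genes, 14 were lower and 2 higher with a median of −0.11, and at the same total the counts were 7 and 7. *Psmc3* (−0.36, adjusted p = 3.49e-06), a base ATPase subunit, was the lowest of them. Only 1 constitutive proteasome gene was higher without treated DKO replicate 1, untreated DKO replicate 3 or treated NTC replicate 1 or 2.

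Of 9 peptide loading genes, 3 were lower and 1 higher, with a median of −0.16, and at the same total 2 were lower and 3 higher. *Tap1*, a subunit of the peptide transporter, stood at 9.85, 9.35 and 10.99 TPM in NTC cells against 7.11, 5.96 and 6.26 TPM in DKO cells, a difference of −0.57 (SE 0.102, adjusted p = 0.000586). *Pdia3*, which encodes a thiol oxidoreductase of the loading complex, differed by −0.24 (adjusted p = 0.00643), and *Erap1*, the aminopeptidase that trims peptides, by −0.28 (adjusted p = 0.0479). *Erap1* passed in 4 of the 12 fits without 1 library. *Tapbp*, which encodes tapasin, was higher, with 32.95, 35.00 and 35.04 TPM in NTC cells against 42.1, 42.1 and 40.2 TPM in DKO cells and a difference of 0.27 (adjusted p = 0.0148); it overlaps *Zbtb22* on the same strand. The others did not pass: *Tap2* differed by −0.16, *Nlrc5*, the class I transactivator, by −0.22, *Calr* by 0.13, *Canx* by −0.04 and *Tapbpl* by 0.26. Their adjusted p-values lay between 0.067 and 0.471. *Calr* passed as higher at the same total (0.22, adjusted p = 0.00614) and *Canx* after removal of the GC trend (0.0983, adjusted p = 0.0243). After that removal *Canx* was the only higher gene of the list, and *Tapbp* did not pass. *Nlrc5* passed as lower under 2 alternative settings, but in 0 of the 12 fits without 1 library. Without treated NTC replicate 1 no gene of this list was higher, and 2 were higher without treated DKO replicate 2, treated NTC replicate 2 or untreated NTC replicate 1 or 2. Without IFNγ, 4 were higher and 0 lower.

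Most genes that carry the IFNγ signal did not pass, and those that did went in both directions. The same holds over all tested genes, of which 43.3% passed, 19.5% as higher and 23.9% as lower. Both chains of the receptor and both kinases were expressed in all treated libraries. *Ifngr1*, the ligand-binding chain, measured 16.4, 16.9 and 16.3 TPM in NTC cells against 18.4, 16.5 and 16.4 TPM in DKO cells, with overlapping groups and a difference of 0.05 (adjusted p = 0.614). *Ifngr2*, the signaling chain, was higher in DKO, with 28.8, 32.1 and 26.2 TPM in NTC cells against 37.7, 41.8 and 39.6 TPM in DKO cells and a difference of 0.44 (SE 0.0688, adjusted p = 0.000222). *Jak1* and *Jak2* differed by 0.02 (adjusted p = 0.717) and −0.15 (adjusted p = 0.139). On the list of 15 receptor and JAK-STAT genes, 2 were higher and 3 lower, with a median of 0.03, and at the same total 5 were higher and 2 lower, with a median of 0.11. Only 1 was higher when treated DKO replicate 1 was left out.

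Lower genes of this list were *Stat6* (−0.17, adjusted p = 0.0149) and *Ifnar2*, a chain of the type I interferon receptor. *Ifnar2* measured 34.2, 43.1 and 41.9 TPM in NTC cells against 27.1, 26.4 and 28.7 TPM in DKO cells, a difference of −0.51 (SE 0.0850, adjusted p = 0.000342), and it shares its locus with a readthrough model on the same strand. *Il10rb* was higher by 0.14 (adjusted p = 0.0211). Of the rest, *Stat5a* differed by 0.23 (adjusted p = 0.0691), *Tyk2* by 0.15 (adjusted p = 0.0909) and *Ifnar1* by 0.05 (adjusted p = 0.324). *Stat2* (−0.05), *Stat3* (0.01), *Stat5b* (0.03) and *Il6st* (0.04) lay between −0.05 and 0.04. Among 11 feedback inhibitors, *Socs2* was higher (0.39, adjusted p = 0.00812) and *Ptpn2*, a phosphatase that acts on JAK1, was lower (−0.17, adjusted p = 0.0122). Leaving out treated DKO replicate 3 gave 2 higher genes here, and at the same total 3 were higher and 0 lower. The *Ptpn2* difference turned to 0.01 after removal of the GC trend.

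**Figure D2:**
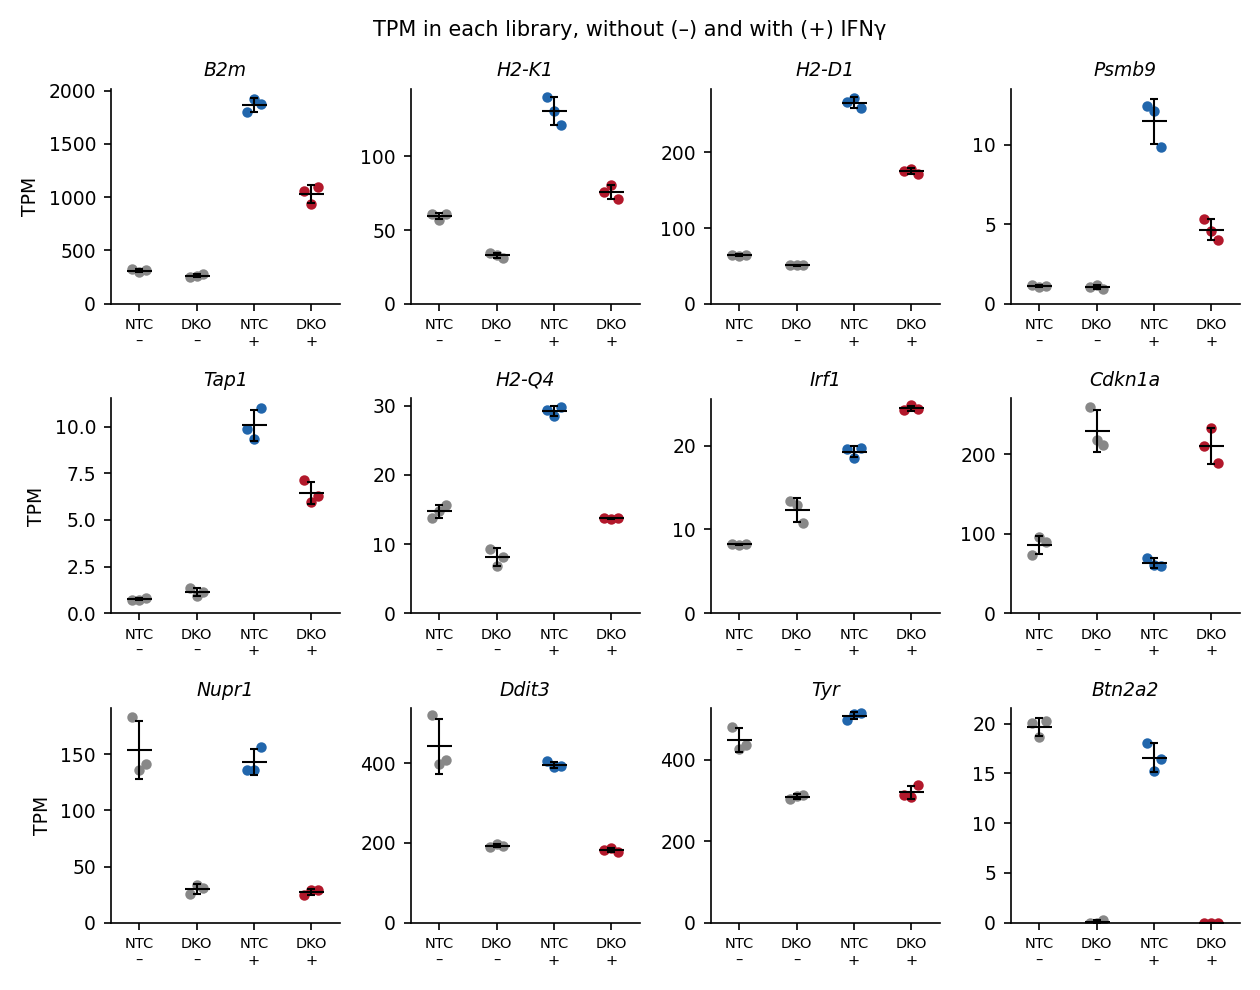
TPM (vertical axis, from 0) of 12 genes in each library of NTC and DKO cells without (–, gray) and with (+, blue for NTC and red for DKO) IFNγ; points are libraries, and bars give the mean and SD of 3. With IFNγ, the DKO libraries of *B2m*, *H2-K1*, *H2-D1*, *Psmb9*, *Tap1*, *H2-Q4*, *Nupr1*, *Ddit3*, *Tyr* and *Btn2a2* all sit below the NTC libraries, and those of *Irf1* and *Cdkn1a* above them.

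Other interferon targets moved in both directions, and most did not pass. Of all tested genes, 43.3% passed, also in both directions. Of 8 genes on the interferon regulatory factor list, 3 were higher and 0 lower. The list also holds *Irf2bp1*, the gene of a protein that binds IRF2. *Irf1*, the transcription factor that relays the IFNγ signal, stood at 19.6, 18.5 and 19.7 TPM in NTC cells against 24.3, 24.8 and 24.3 TPM in DKO cells, a difference of 0.33 (SE 0.0712, adjusted p = 0.00235). *Irf3* was higher by 0.42 (adjusted p = 0.000242) and *Irf2bp1* by 0.42 (adjusted p = 0.0351), the latter with overlapping groups. The *Irf2bp1* call was lost after removal of the GC trend and without any one of treated DKO replicates 1 and 2 and treated NTC replicates 2 and 3. Of 30 antiviral interferon-stimulated genes, 3 were higher, 5 lower and 22 did not pass, with a median of −0.02, and at the same total 5 were higher and 4 lower. *Oas1a*, a synthase of the 2′-5′ oligoadenylates that activate RNase L, stood at 4.12, 5.63 and 3.37 TPM in NTC cells against 1.29, 0.668 and 0.858 TPM in DKO cells, a difference of −1.46 (SE 0.165, adjusted p = 1.54e-05). *Ifit1*, which binds viral RNA ends, went the other way, with 2.40, 2.54 and 2.05 TPM in NTC cells against 5.88, 5.81 and 5.22 TPM in DKO cells and a difference of 0.99 (SE 0.1001, adjusted p = 5.82e-06). *Xaf1* was lower, with a difference of −0.44 (adjusted p = 0.0018), and *Ifit3* higher by 0.48 (adjusted p = 0.0208) with overlapping groups.

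Of 10 guanylate-binding protein and immunity-related GTPase genes, which restrict intracellular pathogens, 2 were higher and 1 lower. *Irgm1* measured 24.2, 22.2 and 25.6 TPM in NTC cells against 39.7, 31.98 and 35.9 TPM in DKO cells and was higher by 0.56 (adjusted p = 0.000356), while its paralog *Irgm2* was lower, with a difference of −0.33 (adjusted p = 0.0151). *Gbp7* was higher by 0.38 (adjusted p = 0.0143). *Irgm2* overlaps *Igtp* on the same strand, and its call was lost without treated DKO replicate 2 and without treated NTC replicate 3. Of 11 nucleic acid sensor genes, 3 were higher and 0 lower with a median of 0.20. They were *Tmem173*, which encodes STING (0.45, adjusted p = 2.76e-05), *Tlr3* (0.37, adjusted p = 0.00383) and *Ikbke* (0.22, adjusted p = 0.0205). Without untreated DKO replicate 2, 1 sensor gene was lower.

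Secreted and surface signals showed more genes higher than lower among chemokines and cytokines, 7 and 1 of 14 tested, with a median of 0.37. *Cxcl10*, a ligand of CXCR3 on T cells, measured 4.86, 6.85 and 7.88 TPM in NTC cells against 19.4, 12.1 and 13.9 TPM in DKO cells, a difference of 1.09 (SE 0.207, adjusted p = 0.000931); it overlaps *Art3* on the opposite strand. *Ccl5*, which also attracts T cells, was higher by 0.64 (adjusted p = 0.00854). *Tgfb2* and *Tgfb3*, growth factors of the TGFβ family, were higher by 0.74 (adjusted p = 2.10e-05) and 1.13 (adjusted p = 2.89e-05). Without untreated NTC replicate 3, 2 genes of this list were lower. Of 12 immune checkpoint ligand genes, 4 were higher and 4 lower, at the same total 4 and 1, and after removal of the GC trend 4 and 2. *Lgals3*, which encodes galectin-3, stood at 71.2, 80.9 and 68.9 TPM in NTC cells against 162, 149.6 and 149.97 TPM in DKO cells, a difference of 1.06 (SE 0.0695, adjusted p = 1.46e-07). *Pvrl2*, a nectin and ligand of TIGIT, was higher by 0.78 (adjusted p = 2.56e-05) and *Cd276* by 0.52 (adjusted p = 7.55e-05), while *Raet1e*, a ligand of NKG2D, was lower, with a difference of −0.47 (adjusted p = 0.0309), a call lost at the same total and after removal of the GC trend. Of the lower 4, only 2 passed without any one of treated DKO replicates 2 or 3 or treated NTC replicates 1 or 2.

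The integrated stress response list had the lowest median of the lists with at least 8 tested genes. In this response, phosphorylated eIF2α favors translation of ATF4, which switches on genes of amino acid synthesis, amino acid import and tRNA charging. Of 32 tested genes, 29 were lower in DKO and 0 higher, and the median was −0.76. Without IFNγ, 31 were lower, with a median of −0.87. *Atf4* averaged 824 ± 23.6 TPM for NTC against 449.8 ± 3.11 TPM for DKO (mean ± SD, n = 3 each). The 4 with the largest differences among those that passed were *Nupr1*, *Slc7a11*, *Trib3* and *Ppp1r15a*. *Nupr1*, a stress-induced chromatin protein, stood at 136, 136 and 156 TPM in NTC cells against 24.7, 28.8 and 29.3 TPM in DKO cells, a difference of −2.33 (SE 0.118, adjusted p = 2.27e-08). *Slc7a11*, the cystine importer, measured 23.9, 23.2 and 26.9 TPM in NTC cells against 7.93, 6.30 and 9.40 TPM in DKO cells and differed by −1.54 (SE 0.141, adjusted p = 2.79e-06). *Trib3*, a pseudokinase that binds ATF4, measured 176, 177 and 172 TPM in NTC cells against 61.2, 68.4 and 58.1 TPM in DKO cells and differed by −1.47 (SE 0.0651, adjusted p = 5.87e-09). *Ppp1r15a*, which directs a phosphatase to eIF2α, differed by −1.42 (SE 0.136, adjusted p = 3.73e-06).

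The lower genes of this list included transcription factors, enzymes, amino acid carriers and tRNA synthetases. The kinase gene *Eif2ak3* (PERK), given further on with another list, was higher. The transcription factors were *Atf3* (−1.33), *Atf5* (−1.19), *Ddit3* (−1.11), *Atf4* (−0.87) and *Cebpg* (−0.84). Serine and one-carbon enzymes were *Psph* (−1.01), *Aldh1l2* (−1.22), *Mthfd2* (−0.89), *Psat1* (−0.67), *Phgdh* (−0.58) and *Shmt2* (−0.50), and asparagine synthetase, *Asns*, had −1.03. The amino acid carriers were *Slc7a5* (−0.70), *Slc1a5* (−0.68), *Slc3a2* (−0.64) and *Slc7a1* (−0.54). The tRNA synthetases were *Sars* (−0.90), *Nars* (−0.71), *Aars* (−0.69), *Gars* (−0.64) and *Wars* (−0.52). These values are differences on the log2(TPM + 1) scale, and the adjusted p-values of these genes were all under 0.05. The 3 that did not pass were *Cebpb* (−0.42), *Sesn2* (−0.12) and *Fgf21* (−0.04). At the same total 29 were lower, and 29 or 30 when any 1 library was left out.

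p53 target genes were mostly higher. Of 22 tested, 14 were higher and 1 lower, with a median of 0.34, and without IFNγ 14 were higher and 4 lower. *Cdkn1a*, which encodes the cyclin-dependent kinase inhibitor p21, stood at 70.1, 61.1 and 59.1 TPM in NTC cells against 211, 234 and 189 TPM in DKO cells, 3.33 times the NTC mean and a difference of 1.72 (SE 0.108, adjusted p = 1.03e-07). *Ccng1*, which encodes cyclin G1, measured 46.9, 52.2 and 48.5 TPM in NTC cells against 151, 143 and 163 TPM in DKO cells, a difference of 1.61 (SE 0.0528, adjusted p = 2.91e-10). *Phlda3*, an inhibitor of AKT, was higher by 1.31 (adjusted p = 6.52e-08) and *Trp53inp1* by 1.198 (adjusted p = 4.19e-08). *Bbc3*, the proapoptotic gene of PUMA, was higher from a low level, with 2.48, 1.70 and 1.30 TPM in NTC cells against 3.86, 8.14 and 4.83 TPM in DKO cells and a difference of 1.19 (adjusted p = 0.00072). *Zmat3* (0.98), *Aen* (0.93), *Bax* (0.35) and *Mdm2* (0.16) also passed. *Trp53* itself was higher by 0.18 (adjusted p = 0.00373). *Mdm4*, an inhibitor of p53, was the lower member (−0.33, adjusted p = 0.00137). The list had 2 lower members without treated DKO replicate 2 or treated NTC replicate 1, and 11 to 15 were higher when any 1 library was left out.

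Pigment genes were lower. Of 27 genes of melanin synthesis and the melanosome, 19 were lower and 0 higher, with a median of −0.40. Without IFNγ, 19 were lower and 1 higher. The enzymes were lower by similar amounts. *Dct* averaged 4478 ± 90.6 TPM for NTC against 2756 ± 19.1 TPM for DKO, a difference of −0.70 (adjusted p = 8.85e-09), *Tyrp1* averaged 6659.8 ± 152 TPM for NTC against 4499 ± 209.8 TPM for DKO, a difference of −0.57 (adjusted p = 6.82e-07), and *Tyr*, the rate-limiting tyrosinase, averaged 509 ± 8.29 TPM for NTC against 320.1 ± 16.8 TPM for DKO, a difference of −0.67 (adjusted p = 3.42e-07). The 4 lowest members were *Slc7a11*, which supplies the cystine of pheomelanin, and the ion channel or transporter genes *Slc24a5* (−0.88, adjusted p = 2.56e-08), *Trpm1* (−0.87, adjusted p = 4.97e-08) and *Oca2* (−0.84, adjusted p = 1.18e-06). The structural genes *Pmel* (−0.42) and *Mlana* (−0.59) passed, and *Gpnmb* (−0.05), *Myo7a* (0.11) and *Atp7a* (0.06) did not. Leaving out treated DKO replicate 3 gave 1 higher member.

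Among 14 melanocyte lineage genes, 7 were lower and 3 higher. *Kit*, the stem cell factor receptor of melanocytes, measured 3.47, 4.20 and 3.95 TPM in NTC cells against 0.397, 0.378 and 0.352 TPM in DKO cells, a difference of −1.82 (SE 0.104, adjusted p = 4.52e-08). *Met*, the HGF receptor, measured 415, 438 and 444 TPM in NTC cells against 248, 247 and 272 TPM in DKO cells, a difference of −0.76 (SE 0.0451, adjusted p = 6.52e-08). *Sox9*, a neural crest transcription factor, was lower, with a difference of −0.80 (adjusted p = 1.76e-05) and *S100b*, a melanoma marker, one of −0.74 (adjusted p = 3.03e-05). *Mitf* differed by −0.53 (adjusted p = 2.14e-06) and *Sox10* by −0.13 (adjusted p = 0.192).

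The 15 genes highest in DKO by the rule for single genes were led by *S100a6*, a calcium-binding protein, at 6.18, 4.46 and 3.53 TPM in NTC cells against 23.9, 24.3 and 21.2 TPM in DKO cells and a difference of 2.10 (SE 0.134, adjusted p = 1.11e-07). Next came *Hist1h4i* (1.93), a replication histone gene whose mRNA mostly lacks a poly(A) tail, *Cacng7* (1.84), *Prkg2* (1.80), a cGMP-dependent kinase, and *Ptp4a3* (1.76), a phosphatase also called PRL-3. *Ptp4a3* measured 11.9, 9.93 and 10.6 TPM in NTC cells against 36.8, 44.6 and 36.03 TPM in DKO cells. After *Cdkn1a* followed *Ddit4l* (1.70), an inhibitor of mTORC1, and *Gja1*, which encodes connexin 43, at 5.15, 5.34 and 5.799 TPM in NTC cells against 18.3, 20.6 and 18.8 TPM in DKO cells and a difference of 1.66 (SE 0.0768, adjusted p = 8.85e-09). After *Ccng1* came *Adam12* (1.55), a metalloprotease, *Park2* (1.42), *Pdlim2* (1.40), *Zfp385a* (1.36), *Olfml3* (1.35) and *H2afj* (1.33). *Park2* is a symbol listed under more than 1 gene identifier, and its NTC libraries spread from 2.54 to 7.81 TPM.

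*Btn2a2* led the genes lower in DKO. This butyrophilin, a surface protein of the B7-like family known to inhibit T cells, lies at chr13:23477676-23488857 and stood at 18.1, 15.2 and 16.5 TPM in NTC cells against 0, 0 and 0 TPM in DKO cells. It is listed at 0 in all 3 treated DKO libraries, so no fold is given. Without IFNγ, the values were 20.1, 18.6 and 20.2 TPM for NTC against 0, 0 and 0.316 TPM for DKO cells. *Tmsb4x*, the actin-sequestering thymosin β4, measured 25.9, 30.5 and 37.3 TPM in NTC cells against 5.66, 5.53 and 4.79 TPM in DKO cells, a difference of −2.34 (SE 0.121, adjusted p = 2.56e-08). *Cited1*, a transcriptional coactivator of pigment cells, stood at 73.5, 79.8 and 84.3 TPM in NTC cells against 13.8, 15.7 and 16.5 TPM in DKO cells, a difference of −2.30 (SE 0.0668, adjusted p = 8.29e-11). *Gjb2*, which encodes connexin 26, stood at 219, 233 and 238 TPM in NTC cells against 80.05, 77.8 and 75.3 TPM in DKO cells, a difference of −1.55 (SE 0.0447, adjusted p = 8.29e-11), so 2 connexin genes lay among the largest differences in opposite directions.

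*Mgst1* (−1.87), a glutathione transferase, *Fez1* (−1.87), *Hs3st1* (−1.78), a heparan sulfate sulfotransferase, *Nat8* (−1.76), *Ppp1r16b* (−1.61), *Nnmt* (−1.60), nicotinamide N-methyltransferase, *Cyb5r2* (−1.57) and *Cml3* (−1.57) completed the lower 15 together with *Nupr1*, *Slc7a11* and the pseudogene *AL807777.1* (−2.35). The pseudogene spread from 15.3 to 45.3 TPM over NTC libraries and had a difference of 0.68 without IFNγ (adjusted p = 0.272). *Nnmt* measured 61.1, 62.8 and 62.2 TPM in NTC cells against 22.99, 18.3 and 18.4 TPM in DKO cells.

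By level, the most abundant genes that were higher were *Ftl1* (0.22, adjusted p = 0.00269), the ferritin light chain, *Ptma* (0.18, adjusted p = 0.0248), *Tmsb10* (1.05, adjusted p = 4.96e-09), *Hspa8* (0.19, adjusted p = 0.00237) and *Rps12* (0.28, adjusted p = 0.0149). *Tmsb10*, thymosin β10, stood at 1202, 1231 and 1131 TPM in NTC cells against 2517, 2357 and 2482 TPM in DKO cells, while its paralog *Tmsb4x* was lower. Among the most abundant lower genes were the mitochondrially encoded *mt-Atp6* (−0.39, adjusted p = 0.00255), *mt-Co2* (−0.29, adjusted p = 0.0145) and *mt-Atp8* (−0.50, adjusted p = 0.00215), together with *Eef1a1* (−0.16, adjusted p = 0.0041) and *Gm10123* (−0.16, adjusted p = 0.00126). Of 13 mitochondrially encoded genes, 5 were lower and 0 higher. They took 6.86% of the total in treated DKO replicate 2, 8.05% and 8.76% in the other treated DKO libraries, and 8.63% or more in each treated NTC library. Without treated DKO replicate 2, 3 were lower, and after removal of the GC trend 0 were lower.

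Genes tied to adhesion, growth signals and cell shape were more often higher than lower. Of 20 Hippo-YAP effector and target genes, 12 were higher and 2 lower, with a median of 0.34. *Tead2*, a DNA-binding partner of YAP, measured 19.8, 17.9 and 16.8 TPM in NTC cells against 34.5, 39.00 and 33.2 TPM in DKO cells, a difference of 0.93 (SE 0.0703, adjusted p = 5.07e-07). *Arhgef17* (0.86), *Tgfb2* and *Wwc1* (0.71) followed. Only 1 gene of this list was lower without treated DKO replicate 1 or treated NTC replicate 3. Of 24 MAPK output and feedback genes, 10 were higher and 2 lower, with a median of 0.30. *Ccnd1*, which encodes cyclin D1, measured 45.4, 35.9 and 37.1 TPM in NTC cells against 78.4, 81.5 and 67.96 TPM in DKO cells, a difference of 0.93 (SE 0.0837, adjusted p = 2.40e-06). *Etv5*, a transcription factor induced by ERK, was higher by 1.05 (adjusted p = 1.63e-06), *Dusp6*, a phosphatase that inactivates ERK, by 0.78 (adjusted p = 6.56e-06), and *Ier3* by 0.53 (adjusted p = 0.00125). Without the chromosome 2 segment described further on, 1 gene of this list was lower.

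Of 24 actin and S100 genes, 14 were higher and 8 lower, and after removal of the GC trend 11 and 8. Besides *S100a6* and *Tmsb4x*, *S100a4* was higher by 1.14 (adjusted p = 7.81e-06) and *Tagln2* by 1.73 (adjusted p = 2.03e-06), the latter below 1 TPM in all 3 NTC libraries. Of 29 collagen and matrix genes, 11 were higher and 5 lower. *Postn*, a matricellular protein gene, measured 4.25, 4.18 and 4.86 TPM in NTC cells against 11.9, 10.04 and 12.1 TPM in DKO cells, a difference of 1.18 (SE 0.112, adjusted p = 3.49e-06), and *Fn1*, which encodes fibronectin, measured 16.3, 15.1 and 15.7 TPM in NTC cells against 27.2, 27.1 and 27.1 TPM in DKO cells, a difference of 0.75 (SE 0.0556, adjusted p = 3.89e-07). *Col1a1*, also a fibroblast marker, stood at 0.397, 0.239 and 0.257 TPM in NTC cells against 1.07, 1.06 and 1.06 TPM in DKO cells. Of 30 integrin, laminin and adhesion genes, 12 were higher and 4 lower. After removal of the GC trend 8 were higher and 5 lower, and without IFNγ 7 and 5. *Sdc1*, a cell-surface proteoglycan, was higher by 1.24 (adjusted p = 4.40e-07), *Mcam*, the melanoma cell adhesion molecule, by 0.93 (adjusted p = 6.38e-08) and *Hspg2*, which encodes perlecan, by 0.68 (adjusted p = 0.000191), while *Alcam* was lower, with a difference of −0.56 (adjusted p = 0.000207).

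**Figure D3:**
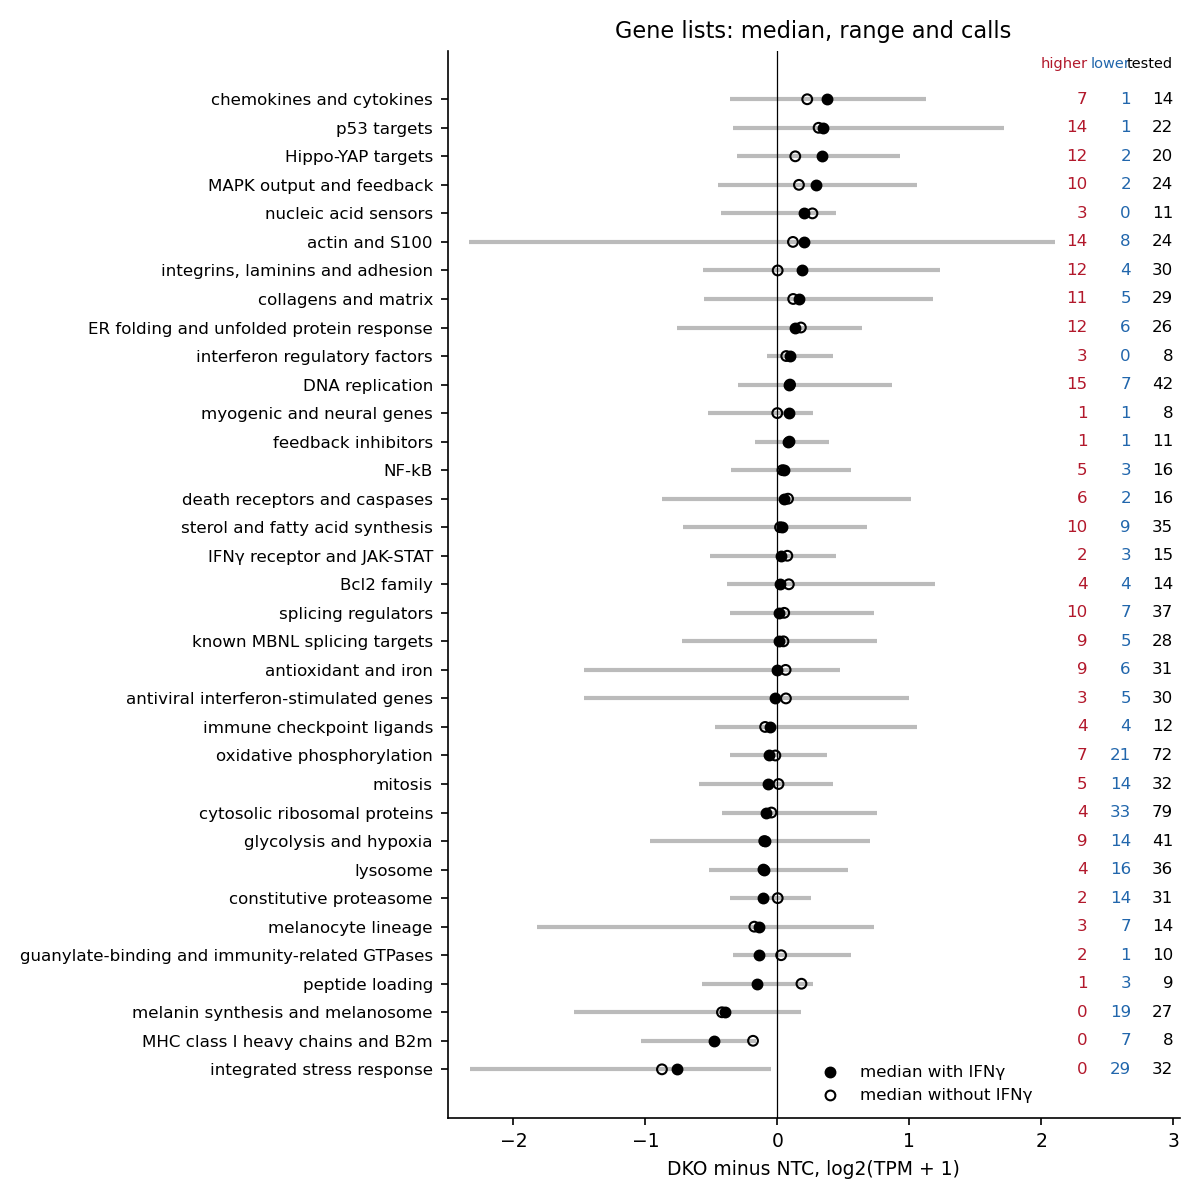
Lists with at least 8 tested genes, ordered by the median difference with IFNγ on the log2(TPM + 1) scale (filled points); open points give the median without IFNγ, and gray lines the range over members with IFNγ. The columns count members that passed as higher, passed as lower, and were tested; the integrated stress response has the lowest median (−0.76), followed by MHC class I (−0.48).

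Cell cycle genes did not move as a block. Of 42 DNA replication genes, 15 were higher and 7 lower, and of 32 mitosis genes 5 were higher and 14 lower. *Ccne1*, which encodes cyclin E1, measured 25.3, 27.4 and 27.4 TPM in NTC cells against 49.98, 47.2 and 51.2 TPM in DKO cells, a difference of 0.87 (SE 0.0674, adjusted p = 6.57e-07), and *Pola2* and *Orc1* were higher by 0.50 and 0.48. The lowest mitosis genes were *Bub1* (−0.59, adjusted p = 6.55e-06), a checkpoint kinase, *Ndc80* (−0.49, adjusted p = 2.27e-05), a kinetochore subunit, *Nusap1* (−0.48, adjusted p = 0.000112) and *Ube2c* (−0.48, adjusted p = 1.42e-05). Of the 14 lower mitosis genes, 6 lie on chromosome 2 beyond 90 Mb, and without that segment 8 of 26 were lower. At the same total, 10 mitosis genes were higher and 10 lower, and 25 replication genes were higher and 1 lower. After removal of the GC trend, 2 replication genes were lower. Lower replication genes numbered 4 without treated DKO replicate 2, untreated DKO replicate 3 or treated NTC replicate 1, 3 without treated NTC replicate 2 and 2 without treated NTC replicate 3. Higher mitosis genes numbered 3 without treated NTC replicate 2.

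Death genes split. Of 16 death receptor and caspase genes, 6 were higher and 2 lower, with *Tnfrsf10b*, the receptor of TRAIL, higher by 1.02 (adjusted p = 4.29e-06) and *Tnfrsf1a* by 0.38 (adjusted p = 6.19e-05), and *Casp4* lower, with a difference of −0.87 (adjusted p = 0.000113) and *Mlkl* one of −0.31 (adjusted p = 0.00163). Without treated DKO replicate 2 or treated NTC replicate 1, 3 were higher. Of 14 *Bcl2* family genes, 4 were higher and 4 lower; *Bid* was higher by 0.57 (adjusted p = 7.02e-06) and the survival gene *Mcl1* lower, with a difference of −0.38 (adjusted p = 3.95e-05). Of 16 NF-κB genes, 5 were higher and 3 lower, among them the inhibitor genes *Nfkbia* (0.56, adjusted p = 0.015) and *Nfkbie* (0.56, adjusted p = 0.00889), *Nfkb2* (0.53, adjusted p = 8.21e-05) and *Tnfaip3* (−0.35, adjusted p = 0.028). Leaving out treated DKO replicate 2 or treated NTC replicate 2 gave 3 higher NF-κB genes, and at the same total 5 were higher and 1 lower. The *Tnfaip3* call was lost at the same total and without treated DKO replicate 1 or treated NTC replicate 1 or 3.

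Of 26 genes of ER folding and the unfolded protein response, 12 were higher and 6 lower, with a median of 0.13. The sensors went opposite ways: *Eif2ak3*, which encodes PERK, was higher by 0.49 (adjusted p = 6.63e-05) and *Atf6* lower, with a difference of −0.76 (adjusted p = 1.51e-06). *Sdf2l1* was higher by 0.64 (adjusted p = 0.000542) and *Herpud1*, a factor of ER-associated degradation, lower, with a difference of −0.49 (adjusted p = 8.19e-07). Of 31 antioxidant and iron genes, 9 were higher and 6 lower, against 19.5% and 23.9% of all tested genes. *Gsta4* (−1.47, adjusted p = 4.65e-07), *Gstp1* (−0.39, adjusted p = 3.38e-06) and *Hmox1* (−0.39, adjusted p = 7.36e-05) were lower, and *Gpx1*, glutathione peroxidase, was higher (0.48, adjusted p = 2.11e-05). Of 36 lysosome genes, 16 were lower and 4 higher, and at the same total 12 and 12. *Ctsa* (−0.52) was lower and *Gusb* (0.54) and *Glb1* (0.35) higher.

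Metabolic and ribosomal lists had medians between −0.09 and 0.03, against −0.01 over all tested genes. Of 41 glycolysis and hypoxia genes, 14 were lower and 9 higher: *Slc16a3*, a lactate exporter, was lower, with a difference of −0.97 (adjusted p = 3.08e-06), and *Ldhb* (0.69, adjusted p = 4.05e-08), *Adm* (0.68, adjusted p = 3.40e-06) and *Ankrd37* (0.68, adjusted p = 3.71e-06) were higher. Of 35 sterol and fatty acid genes, 10 were higher and 9 lower: *Sqle* (−0.72, adjusted p = 2.06e-07) and *Sc4mol* (−0.47, adjusted p = 5.36e-05) of sterol synthesis were lower, and *Elovl6* (0.68, adjusted p = 9.29e-06) and *Fasn* (0.48, adjusted p = 0.000218) of fatty acid synthesis higher. Of 72 nuclear oxidative phosphorylation genes, 21 were lower and 7 higher, and at the same total 13 and 18. The balance over all tested genes turned as well, to 1746 lower and 3278 higher. At the same total the median of the list was 0.02, against 0.07 over all genes. *Uqcr11* (0.38) and *Uqcr10* (0.36) were higher and *Ndufs4* (−0.36) and *Ndufs3* (−0.35) lower. Without treated DKO replicate 3, 13 were higher, against 4 without treated DKO replicate 1 or 2 and 3 without treated NTC replicate 3. Of 79 cytosolic ribosomal protein genes, 33 were lower and 4 higher with a median of −0.09, and at the same total 18 and 12. After removal of the GC trend, 39 were lower and 4 higher. *Rps16* (0.75), *Rpl27* (0.52), *Rpl10* (0.44) and *Rps21* (−0.42) were the largest differences, and the groups overlapped for *Rps16*. Higher ribosomal genes numbered 7 without treated NTC replicate 1, 2 without treated DKO replicate 1 and 1 without treated DKO replicate 2 or treated NTC replicate 2. These genes have many processed pseudogenes that can share reads, so their single values are uncertain.

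RNA-binding genes were examined because the targeted genes are splicing regulators. The shares over all tested genes were 19.5% higher and 23.9% lower. Of 37 splicing regulator genes, 10 were higher and 7 lower, and at the same total 16 and 5. *Rbm38*, itself a p53 target, was higher by 0.73 (adjusted p = 0.000801) and *Srsf4* by 0.40 (adjusted p = 0.00267), and *Hnrnpa1* and *Hnrnph1* were lower, with differences of −0.36 (adjusted p = 0.000543) and −0.34 (adjusted p = 5.16e-05). Without treated DKO replicate 1, 6 were higher, and without treated DKO replicate 3, 12 were lower. Of 28 genes known as splicing targets of MBNL, 9 were higher and 5 lower, with a median of 0.01. *Fn1* (0.75) and *Bin1* (0.71), which shapes membranes, were the highest, and *Vldlr* (−0.73), a lipoprotein receptor, and *Ank2* (−0.44) the lowest. Leaving out treated DKO replicate 1, or either of untreated DKO replicates 2 and 3, left 3 lower targets. These are gene totals, and isoforms were not analysed here. Of 8 myogenic and neural genes tested, *Tubb3* was higher (0.27, adjusted p = 0.00699) and *Ncam1* lower (−0.53, adjusted p = 9.11e-06), and 2 were lower without treated DKO replicate 2. *Cd68*, the only immune marker that passed, stood at 2.62, 1.65 and 1.99 TPM in NTC cells against 6.49, 5.39 and 4.84 TPM in DKO cells. *Col1a2*, of the fibroblast list, was higher by 0.58 (adjusted p = 0.00185).

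Differences also followed position in the genome. When the tested genes were placed in windows of 10 Mb (GRCm38), all 10 windows of chromosome 2 from 90 Mb on had median differences between −0.37 and −0.21 with IFNγ and between −0.29 and −0.22 without IFNγ. The windows of that chromosome before 80 Mb had medians between −0.08 and 0.08 with IFNγ. The segment from 90 Mb on holds 570 tested genes, of which 344 were lower (60.4%) and 19 higher (3.33%), against 23.9% and 19.5% over all tested genes. Without IFNγ, 333 were lower, and those 6 libraries are not shared with the treated comparison. Relative to all other tested genes and to untreated NTC cells, the segment's median lay between −0.28 and −0.26 in each of the 6 DKO libraries, and between −0.01 and 0.01 in each of the 6 NTC libraries. The segment's limits were chosen after its values were seen.

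Smaller shifts of this kind stood on chromosomes 6 and 15. The 206 tested genes on chromosome 6 from 100 Mb on had a median of 0.19 with and 0.20 without IFNγ, with 105 higher and 11 lower. The 329 on chromosome 15 before 90 Mb had a median of −0.14 with and −0.15 without IFNγ, with 138 lower and 30 higher. After removal of the GC trend, the 3 medians were −0.26, 0.20 and −0.16 for chromosomes 2, 6 and 15. On chromosome 13, the window from 60 to 70 Mb had a median of −0.26 with and −0.18 without IFNγ. The window from 20 to 30 Mb of chromosome 13 had 0.09 in both states. With the GC trend removed, the medians of these 2 windows with IFNγ were −0.15 and 0.16. No DNA was measured in these samples, and the cause was not tested. Both genotypes derive from 1 sorted cell, and each genotype is described as 1 infected pool, so an effect of the *Mbnl* edits and a difference between the pools cannot be told apart.

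*B2m* is one of the genes on the chromosome 2 segment, as are *Trib3*, *Slc24a5*, *Pdia3*, *Bub1*, *Nusap1*, *Ube2c*, *Ctsa*, *Psmc3*, *Ndufs3*, *Rps21*, *Rbm38*, *Ppp1r16b*, *Cebpb* and *Gfra4*. The 96 other tested genes within 5 Mb of *B2m* had a median of −0.28 with and −0.25 without IFNγ. *B2m* differed by −0.23 without IFNγ, rank 319 from the lowest of the segment's 570 genes, and by −0.86 with it, rank 19. *Pdia3* (−0.24) and *Ndufs3* (−0.35) were close to the segment's median, and *Trib3* (−1.47) was not. Leaving the segment out, 2252 genes were higher and 2438 lower of 11093 tested. The integrated stress response list then had 27 of 29 lower genes, the melanin list 18 of 26 and the peptide loading list 2 of 8.

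**Figure D4:**
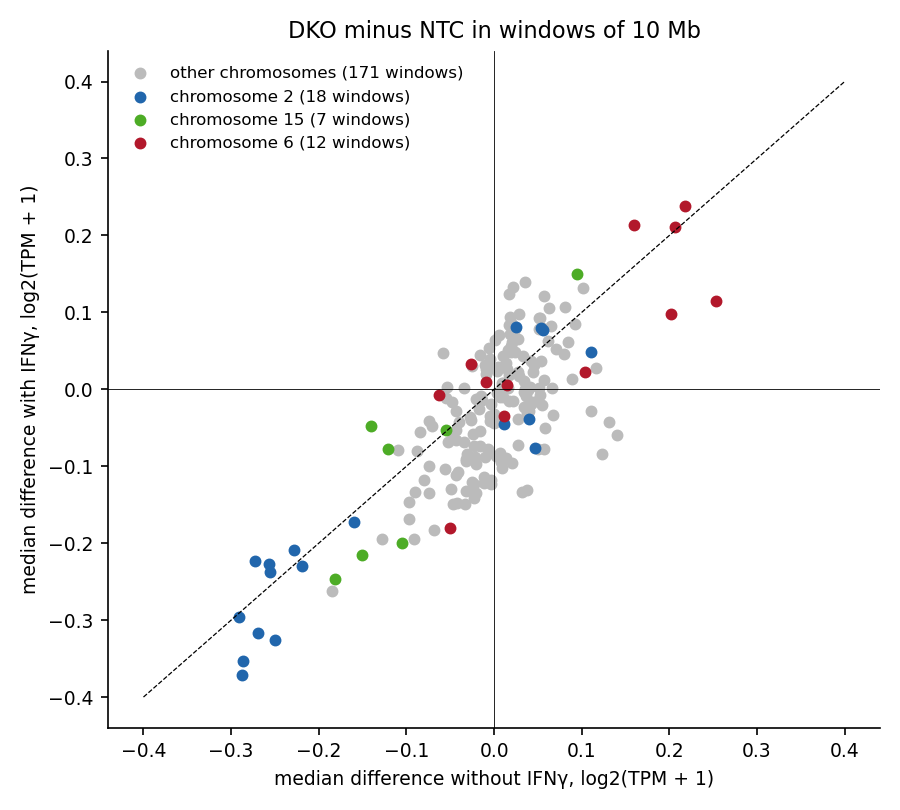
Median difference between DKO and NTC cells over the tested genes of each 10 Mb window (at least 20 genes), without IFNγ (horizontal axis) and with IFNγ (vertical axis), both on the log2(TPM + 1) scale; the dashed line marks equal values. The 18 windows of chromosome 2 fall into a group near 0 and a group from −0.37 to −0.17 with IFNγ, and 171 windows on chromosomes other than 2, 6 and 15 are in gray.

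Most of the genotype difference was present in both states. Without IFNγ, 4247 genes differed (36.4% of those tested), 1982 higher and 2265 lower. Of the 5053 genes that passed with IFNγ, 3213 (63.6%) also passed without it in the same direction and 7 in the opposite direction. The 3220 genes that passed in both were 63.7% of the first set and 75.8% of the second. Across the 11663 genes, which are not independent replicates, the 2 differences correlated with r = 0.81. Of the 143 passing genes beyond 1 with IFNγ, 128 also passed without it in the same direction. Examples from the stress response, p53, pigment and MHC lists are *Cdkn1a* (1.41 without IFNγ), *Nupr1* (−2.32), *Trib3* (−1.72), *Tyr* (−0.53) and *H2-K1* (−0.84).

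The difference between the 2 genotype differences passed for 4 genes (0.0343% of those tested), and 1340 had an unadjusted p-value under 0.05. *Psmb9* differed by −0.05 without and −1.14 with IFNγ, *B2m* by −0.23 and −0.86, and the readthrough model *RP23-190G10.4* by 0.40 and −0.68. For *Gfra4* the values were −0.04 and 1.202. For *Tap1* they were 0.30 and −0.57, but the test of the change did not pass (adjusted p = 0.0709). *H2-K1* changed by 0.05 (adjusted p = 0.828) and *H2-D1* by −0.28 (adjusted p = 0.123), so the 2 classical heavy chains were not shown to differ more with IFNγ than without it. Each of the 4 calls depended on single libraries: over the 12 fits that left out 1 library, *B2m* passed in 4, *RP23-190G10.4* in 2, and *Psmb9* and *Gfra4* in 1 each.

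**Figure D5:**
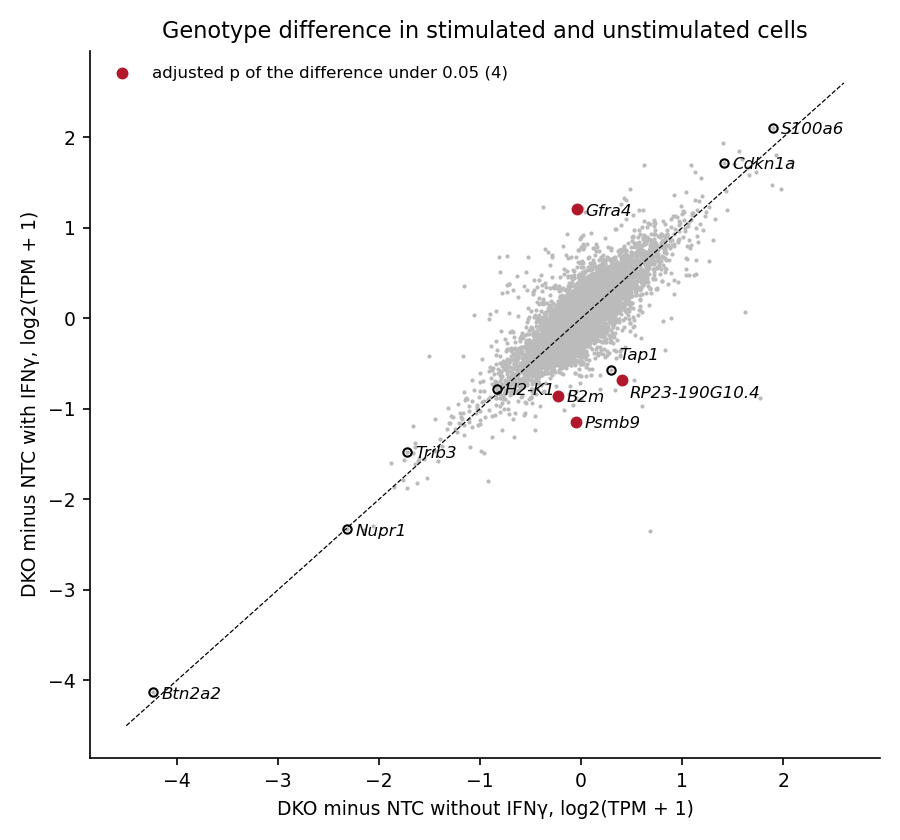
Difference between DKO and NTC cells with IFNγ (vertical axis) against the difference without IFNγ (horizontal axis), both on the log2(TPM + 1) scale, 1 point per tested gene, with the dashed line marking equal values. Red points are the 4 genes whose 2 differences differed by the test: *Psmb9*, *B2m* and *RP23-190G10.4* lie below the line and *Gfra4* above it.

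A few genes were listed at 0 in all 3 treated libraries of one genotype and at 1 TPM or more in all 3 of the other. Those at 0 in DKO were *Btn2a2*, *Nostrin*, *Mrap* and *Fcho1*, and those at 0 in NTC were *Stmn4*, *Fam107b*, *Gfra4*, *Fxyd1*, *Nhedc1* and *Anks1b*. Apart from *Btn2a2*, none exceeded 3.15 TPM in any treated library. *Nostrin*, which binds endothelial nitric oxide synthase, was at 0 in all 6 DKO libraries and between 0.894 and 1.44 TPM in all 6 NTC libraries. *Mrap*, an accessory protein of melanocortin receptors, was at 1.88, 2.53 and 3.15 TPM with IFNγ in NTC and spanned 0.832 to 0.906 TPM in untreated DKO libraries. *Gfra4*, a co-receptor of the GDNF family, was at 1.60, 1.22 and 1.11 TPM with IFNγ in DKO and spanned 1.18 to 1.51 TPM in untreated NTC libraries, so only the treated NTC libraries lacked it. *Stmn4*, *Fam107b* and *Nhedc1* were each at 0 in at least 1 untreated DKO library and near 2 TPM in another, and at such levels a 0 can be a failed estimate.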

How the data were processed

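Poly(A) RNA from 12 libraries (NTC and *Mbnl* DKO cells, untreated and with IFNγ, 3 replicates each) was sequenced without strand information. The authors deposited TPM per gene (23022 genes); the submitters' processing notes name RSEM 1.2.4, Bowtie and TopHat 20.8b, with builds that include mm10. Read depth cannot be recovered from TPM, so no counting error is given.

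log2(TPM + 1) was computed for genes reaching 1 TPM in 3 or more of 12 libraries and fitted with limma 3.58.1 (R 4.3.3) with 1 mean per group, a prior variance following mean level and two-sided tests. p-values were adjusted over all tested genes (Benjamini-Hochberg) at 0.05. Positions came from the GENCODE annotation of GRCm38, matching 22251 genes. The scripts were tested on simulated data. Python 3.11.15, numpy 2.4.6, pandas 2.3.3 and matplotlib 3.10.9 were used for summaries.

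The comparison and the gene lists were chosen with earlier results of these data known. Genes named were the *Mbnl* genes, the 15 largest non-overlapping differences in each direction with a mean of at least 5 TPM in the higher group, up to 4 passing members per list, all antigen presentation and IFNγ signaling members (apart from an item not reported here), the 5 most abundant passing genes in each direction and the genes with a passing change with IFNγ. Genes at 0, genome segments and further list members were named after their values were seen. The fit was planned without a replicate block, which was run as an alternative. Same-numbered replicates did not deviate together more than other pairs.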

Additional observations from a re-analysis of the deposited data

Results flagged for a closer look

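For 4 genes, the test of the change found that the genotype difference with IFNγ differed from that without IFNγ. The change was −0.63 for *B2m*, −1.09 for *Psmb9* and −1.08 for *RP23-190G10.4*, a readthrough model that shares exons with *Ifnar2* and *Il10rb*, so its reads cannot be assigned to it alone. For *Gfra4*, at 0 in the treated NTC libraries and below 2 TPM elsewhere, it was 1.24. The adjusted p was 0.0256 for each (limma), and over the fits without 1 library it ranged from 0.0187 to 0.102 for *B2m*, 0.0489 to 0.11 for *Psmb9*, 0.0187 to 0.107 for *RP23-190G10.4* and 0.0458 to 0.102 for *Gfra4*. In all 3 replicates, *B2m* and *Psmb9* were lower in DKO than in every NTC library with IFNγ.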

How the results depend on the processing

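Of 178 named genes that passed, 150 kept their call and direction under each of the 22 alternatives that could be run for them (175 of the 196 named genes reached the minimum of 5 TPM), 28 lost or reversed it in some, and *Ptpn2* alone reversed (0.0109 after removal of each library's trend on GC content and length). Genes lower in DKO numbered 1746 at the same total and 1743 with the library factor removed, a scaling chosen after seeing the data, as was leaving out chromosome 2 from 90 Mb. Leaving out 1 library gave 4239 to 5110 genes with IFNγ, 1874 to 2265 higher and 2358 to 2845 lower, and 3430 to 4477 without IFNγ. Genes whose difference changed with IFNγ numbered 1 at a minimum of 5 TPM, 10 without a filter, 2 with the replicate block and 0 to 7 without 1 library. Under the replicate block 4899 genes passed with IFNγ. Same-numbered libraries correlated between −0.179 and 0.182, over 0.1 in 4 of 18 pairs. Pairs with other numbers lay between −0.219 and 0.213, over 0.1 in 9 of 36, so no pairing by number was seen. The causes were not tested.

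Some genes that did not pass changed sign. *Canx* turned to 0.0983 with the trend removed, where it passed (adjusted p = 0.0243), 0.0425 with the factor removed, 0.0417 at the same total and, without 1 library, spanned −0.0947 to 0.0109. *Psmb10* turned to 0.0768 with the factor removed, 0.0760 at the same total, 0.0056 at median-ratio scaling and spanned −0.0585 to 0.0217 without 1 library. *Stat2* turned to 0.0220 with the factor removed, 0.0211 at the same total and spanned −0.1085 to 0.0121 without 1 library. *Stat3* turned to −0.0628 and *Stat5b* to −0.0596 with the trend removed. Without 1 library *Stat3* spanned −0.0206 to 0.0330, *Stat5b* −0.0032 to 0.0754, *Ifngr1* −0.0061 to 0.0721 and *Jak1* −0.0215 to 0.0462. TPM keep no depth, so no detection limit can be given.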
